A study of Mus musculus with 20 samples.

Results

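The replication-dependent histone genes encode the core histones H2A, H2B, H3 and H4 and the linker histone H1 that package newly copied DNA. They were taken here as every gene whose symbol begins with Hist1h, Hist2h, Hist3h or Hist4h, which gave 68 of the 23284 genes in the deposited tables. The 68 genes comprised 6 of H1, 18 of H2A, 19 of H2B, 12 of H3 and 13 of H4, and 1 of them, Hist3h2bb-ps, carries a pseudogene symbol. The rule uses the symbol and no measured value, but the group itself was chosen with earlier results of these data known. The RNA came from mouse embryonic stem cells (ESCs) in which a C-terminal Flag, HA and Twin-Strep tag had been knocked into the endogenous gene, in lines of genotype Tet1-KI, Tet2-KI or Tet2-delta-RNA-binding-domain-KI (Tet2dRBD below). In each line the tagged protein was immunoprecipitated from cytoplasmic extract with an anti-Flag antibody (IP), and the RNA recovered was compared with an input, which the study's methods describe as total RNA of the ESCs, the question being which RNAs each protein binds and whether binding needs the RNA-binding domain of Tet2. An IP over input ratio may therefore also carry the difference between cytoplasmic and total RNA, which was not tested. There were 2 IP and 2 input libraries for Tet1-KI, 4 and 4 for Tet2-KI and 4 and 4 for Tet2dRBD. All 3 lines were grown with LIF and serum and were picked knock-in clones, and which clone gave each library, and whether replicates were separate cultures, is not given in the sources used here, so p-values measure the spread between these libraries, which may be technical. IgG control precipitations were not analysed here.

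Libraries held 21078995 to 37576638 expected counts, of which the 68 histone genes took 794.9 to 3694.4. From their deposited names the libraries fell into 3 sets: set 1 (replicate 1 of Tet2 and Tet2dRBD), set 2 (replicate 2 of both) and set 3 (replicates 3 and 4 of both and all Tet1 libraries). Tet1 libraries occurred only in set 3. The ESC marker list summed to 14582 to 18905 TPM per input (TPM being the share of all transcripts in a library, corrected for transcript length), against 47.0 to 144 TPM for the list of other cell types. No gene of either list, each of 12 genes, was at 0 in every library.

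Replication-dependent histone transcripts are made mainly in S phase, when new chromatin is assembled. As a rule they lack introns and, unlike other messenger RNAs, end in a short hairpin in place of a poly(A) tail. Some members have annotated spans far longer than the gene model used for counting. Examples are Hist1h2bc (chr13:23776068-23784357, model of 728 bases) and Hist1h2be (chr13:23675611-23712993, model of 2480 bases). Whether these transcripts are spliced was not tested. The hairpin is bound by the stem-loop binding protein (Slbp), and cleavage just downstream of it is guided by the U7 small nuclear ribonucleoprotein. The labels give polyA RNA as the molecule of every library, whereas the study's methods describe the input as total RNA. A level measured here may therefore miss transcripts without a tail, to an extent that was not tested. Tet1 and Tet2 are dioxygenases that oxidise 5-methylcytosine to 5-hydroxymethylcytosine, on DNA and on RNA.

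The hairpin is shown because it is the feature that sets these transcripts apart from polyadenylated RNA. In the mm9 genome a hairpin of 16 bases, starting with GG and with its first 6 bases pairing with its last 6, was searched for on the transcribed strand of the 150 bases after the stop codon. It was present in 60 of the 66 histone genes whose coding sequence could be placed, with its end 37 to 74 bases (median 47) after the stop codon. Among the 17573 genes of the GENCODE vM1 annotation with a 3′ untranslated region at least as long as the window, 0.575% held such a hairpin. The plain letters TTTTCAG, which overlap the hairpin, occurred in the window of 49 members and of 1.97% of those genes. The 60 hairpins had 8 sequences, and the loops of 4 bases are in capitals in the 3 examples below. The first, shared by 36 genes, is shown for the member with the highest input level, the second (9 genes) for the next highest and the third (2 genes) for a gene lower in both Tet2 and Tet2dRBD precipitates.
Hist1h2bc, chr13:23776516-23776531, plus strand: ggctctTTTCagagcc
Hist1h2bk, chr13:22128169-22128184, plus strand: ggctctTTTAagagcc
Hist1h4i, chr13:22132835-22132850, minus strand: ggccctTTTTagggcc
No such hairpin was found after Hist1h2an, Hist1h2bp, Hist1h2bq, Hist1h2br, Hist2h2bb or Hist2h2be, which says only that these letters are not in the window. The window followed the stop codon of the annotated transcript with the longest coding sequence. That sequence held 417 bases in Hist1h2bp, 408 in Hist1h2bq and Hist1h2br and 363 in Hist2h2bb, against 381 in Hist1h2bc. In these genes the window may therefore follow a different stop codon, which was not tested.

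Of the 68 genes, 54 lay on chromosome 13, 10 on chromosome 3, 3 on chromosome 11 and 1 on chromosome 6. The gene models used for counting differed in how much of the transcript they covered. In 32 genes the model held coding bases only, so that reads from the untranslated ends were not counted. In 17 it held at most 200 further bases beyond the coding sequence and the stretch up to the hairpin end, and in 12 (long models below) more than 200, counted at both ends of the transcript together. Members also share sequence. A median of 31.8% of the 68-base windows of a coding sequence occurred in no other member, 10 members had no such window, and 8 members had a coding sequence identical to that of another. RSEM divides reads among such copies, so single-gene values of these members are uncertain. The values of Hist1h2bq and Hist1h2br were equal within 0.02 TPM in every library. Among the genes described below, a share of 100% unique windows was found for Hist3h2ba, Hist2h2be and Hist4h4, 92.6% for Hist3h2a and 81.5% for Hist1h1c, but 5.1% for Hist1h2bk, 4.8% for Hist1h2bc and 0% for Hist2h2aa1. It was 39.2% for Hist1h4i, 32.6% for Hist2h3c1, 29.4% for Hist1h4h and 27.7% for Hist1h2be, so their single-gene values below are uncertain as well.

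Histone transcripts were present at low levels in the input. The 68 genes together summed to 88.9 to 307 TPM per input library, with a median of 144 TPM. The 11 genes listed as replication-independent histone variants, whose transcripts are for the most part polyadenylated and not confined to S phase, summed to 5122 to 6793 TPM. The tail and timing of each variant transcript were not tested. The replication-dependent genes thus amounted to 1.31% to 5.99% of the level of the variants. A mean input level of at least 1 TPM was reached by 45 members (66.2%, against 50.6% of all genes) and a mean of at least 5 TPM by 7 of the 68, against 36.4% of all genes. Members were above 0 in every library in 25 cases, and 1 member, the testis-specific Hist1h2ba, was at 0 in every input. H2B genes carried 40.9% of the mean input TPM of the group, H2A genes 19.2%, H4 genes 18.8%, H3 genes 14.0% and H1 genes 7.03%.

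**Figure D1:**
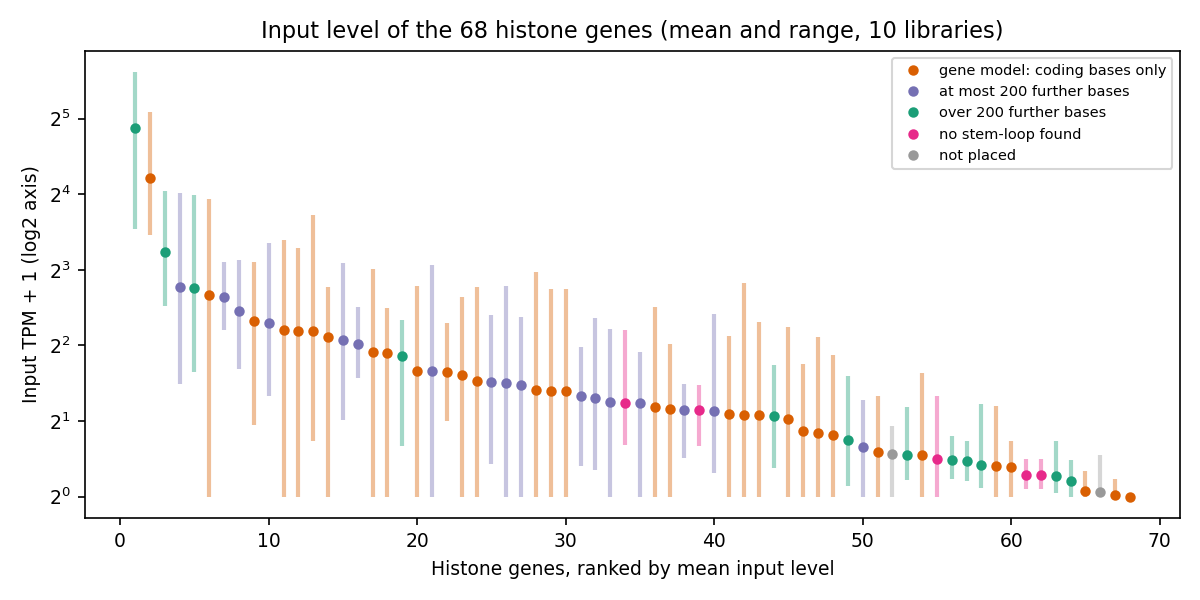
Input TPM + 1 on a log2 axis for the 68 histone genes in the order of their mean over 10 input libraries (points), with the lowest and highest library (bars) and the kind of gene model in colour. The 7 leftmost genes have means of at least 5 TPM, and 23 genes have means under 1 TPM.

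The level was concentrated in a few genes. Hist1h2bc, an H2B gene whose model holds 297 such further bases, was the highest, with 10.6 to 48.1 TPM over the 10 inputs (median 27.3) and 17.1% of the summed level. Hist1h2bk, an H2B gene counted over its coding bases only, held 9.97 to 33.0 TPM (median 14.9). Hist1h1c, the H1.2 linker histone gene, held 4.72 to 15.4 TPM (median 7.05). Together these 3 genes carried 32.8% of the level and the 10 highest 53.7%. The next were the neighbouring chromosome 11 genes Hist3h2ba (1.82 to 15.2 TPM, median 3.50), an H2B gene, and Hist3h2a (2.13 to 14.9 TPM, median 3.12), an H2A gene. They were followed by Hist1h2ah, with 0 to 14.3 TPM (median 5.24), Hist1h4i, with 3.61 to 7.57 TPM (median 5.12), and Hist1h3c, with 2.21 to 7.72 TPM (median 4.46), which encode H2A, H4 and H3. Hist1h4d, with 0.92 to 7.63 TPM (median 4.00), and Hist2h2aa1, with 1.51 to 9.21 TPM (median 2.98), closed the list of 10. The ranges of neighbours in this order overlapped throughout, so the order below Hist1h1c is not larger than the spread between libraries. Genes with coding-only models had a median mean input of 1.45 TPM, those with at most 200 further bases 1.84 TPM and those with long models 0.57 TPM. The 12 long models nevertheless carried 29.5% of the summed level, mostly through Hist1h2bc and Hist1h1c.

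Input levels differed between library sets. The summed level was 265 ± 59.4 TPM in set 1 (SD, n = 2), 165 ± 52.9 TPM in set 2 (SD, n = 2) and 132 ± 37.9 TPM in set 3 (SD, n = 6). With line and set in one edgeR fit of the 10 inputs, 14 of the 30 members tested differed between sets at an adjusted p below 0.05, a smaller share than among all genes, of which 82.1% were called. Because nearly all genes moved with the set, the difference says nothing particular about histone genes. The 14 were 3 H1 genes (Hist1h1a, Hist1h1c, Hist1h1d), 2 H2A genes (Hist2h2aa1, Hist3h2a), 3 H2B genes (Hist1h2bc, Hist1h2bk, Hist3h2ba), 3 H3 genes (Hist1h3b, Hist1h3c, Hist2h3c1) and 3 H4 genes (Hist1h4h, Hist1h4m, Hist4h4). Without set 1, 8 of 21 members tested differed between sets 2 and 3, against 59.0% of all genes.

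Hist3h2ba and Hist3h2a showed the pattern most plainly. Hist3h2ba stood at 15.2 and 13.6 TPM in the Tet2 and Tet2dRBD inputs of set 1, at 3.37 and 1.82 TPM in those of set 2 and at 2.39 to 7.32 TPM in the 6 inputs of set 3 (edgeR adjusted p = 2.26e-05). Hist3h2a stood at 13.6 and 14.9 TPM in set 1, at 2.81 and 2.95 TPM in set 2 and at 2.13 to 6.80 TPM in set 3 (edgeR adjusted p = 3.47e-06). Both set 1 inputs lay above all others for each gene. Hist1h2bc had a different order, with 46.8 and 48.1 TPM in set 1, 21.2 to 37.5 TPM in set 3 and 10.6 and 10.8 TPM in set 2, and the 3 sets did not overlap (edgeR adjusted p = 1.34e-05). Hist1h4i, by contrast, had set means of 5.12, 5.09 and 5.33 TPM. The Tet1 inputs, which occurred only in set 3, summed to 194 and 157 TPM, above the 88.9 to 131 TPM of the other 4 inputs of that set, a difference that was not tested. Between the Tet2 and Tet2dRBD lines no member differed in input (0 of 30 tested by edgeR, none at an unadjusted p below 0.05, 0 by DESeq2 with 3 at an unadjusted p below 0.05), against 3.14% of all genes called and 1.79% called higher in Tet2.

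**Figure D2:**
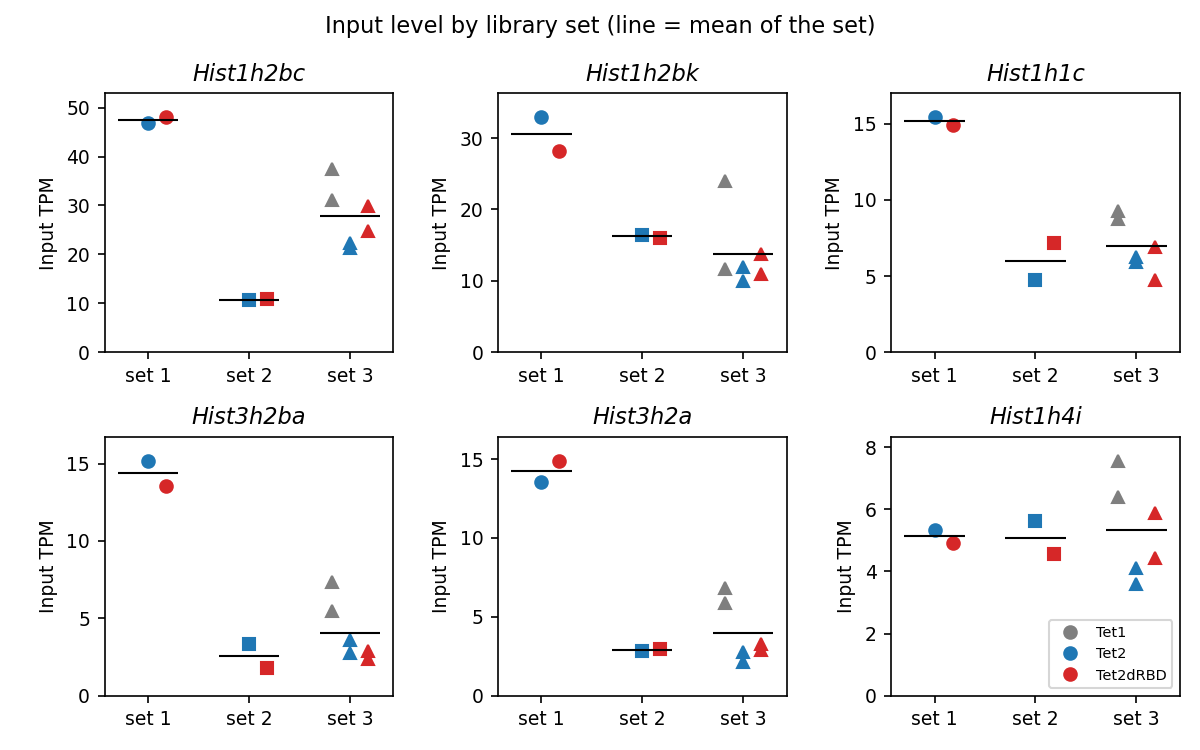
Input TPM of 6 histone genes in each input library, arranged by library set and coloured by line, with the mean of each set as a line. Hist3h2ba and Hist3h2a lie at 13.6 to 15.2 TPM in set 1 and at most 7.32 TPM elsewhere, whereas Hist1h4i spans 3.61 to 7.57 TPM with no step between sets.

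Other measures varied alongside the sets, and their part in the input levels was not tested. The S phase list summed to 2120 to 2613 TPM per input in set 1, 2834 to 3132 TPM in set 2 and 1762 to 2621 TPM in set 3, so it was not highest where the histone transcripts were highest. In these bulk extracts, fewer cells in S phase and less histone RNA per cell cannot be told apart. Of 10 noncoding RNAs listed as lacking a poly(A) tail, 7 were in the data. Their sum per input was 33.0 to 498 TPM in set 1, 74.6 to 195 TPM in set 2 and 8.89 to 136 TPM in set 3. Whether these sums are related to those of the histone classes was not tested. Markers of other cell types summed to 94.8 to 117 TPM in set 1, 93.1 to 144 TPM in set 2 and 47.0 to 87.4 TPM in set 3.

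The summed level of the histone transcripts was lower in the precipitates than in the paired inputs. The ratio of the summed TPM was below 1 in 10 of 10 pairs. Expressed as log2 of (summed TPM + 1) in IP over input, it averaged -0.60 ± 0.40 in Tet1 (SD, n = 2), -0.47 ± 0.35 in Tet2 (SD, n = 4) and -0.54 ± 0.34 in Tet2dRBD (SD, n = 4), with the single pairs between -0.12 and -0.96. The sum leans on its most abundant genes. Without Hist1h2bc, Hist1h2bk and Hist1h1c it was below input in 9 of 10 pairs, with a log2 ratio of 0.02 in Tet2 pair 3. Counted singly, 28 members were below and 33 above input in each of Tet2 pairs 2 and 3 and 33 below and 32 above in Tet2dRBD pair 1, whereas in the other 7 pairs 36 to 57 were below and 7 to 22 above. In Tet2 pair 3 the median log2 ratio of the members that averaged 1 TPM or more was 0.11. The spread among pairs of a line was thus wider than the distance between lines. On the same scale the median ratio of all genes that averaged 1 TPM or more in the inputs was 0.01 to 0.38 per pair, so these sums lay further below the bulk of the genes than below 0. Within set 1 the summed ratios were -0.71 in Tet2 and -0.12 in Tet2dRBD, within set 2 -0.22 and -0.58, and within set 3 -0.12 and -0.82 in Tet2 and -0.52 and -0.96 in Tet2dRBD.

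The classes differed in how evenly they were lowered. H3 and H2B sums were below input in 10 of 10 pairs, H4 sums in 9, H2A sums in 8 and H1 sums in 7. H3 averaged -0.98 ± 0.19 in Tet1 (SD, n = 2), -0.72 ± 0.60 in Tet2 (SD, n = 4) and -0.86 ± 0.34 in Tet2dRBD (SD, n = 4). H4 averaged -0.86 ± 0.74, -0.77 ± 0.62 and -0.60 ± 0.41 in the same order, and H2B -0.44 ± 0.32, -0.46 ± 0.33 and -0.38 ± 0.31. The linker histones were nearest to input, with -0.17 ± 0.05, -0.18 ± 0.35 and -0.01 ± 0.40. H2A was variable, with -0.61 ± 0.52, -0.21 ± 0.53 and -0.69 ± 0.63. The mean of H2A in Tet2 turned to 0.05 without replicate 4, and that of H1 in Tet2dRBD to 0.12 without replicate 2 and 0.08 without replicate 3. Differences between classes were not tested.

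**Figure D3:**
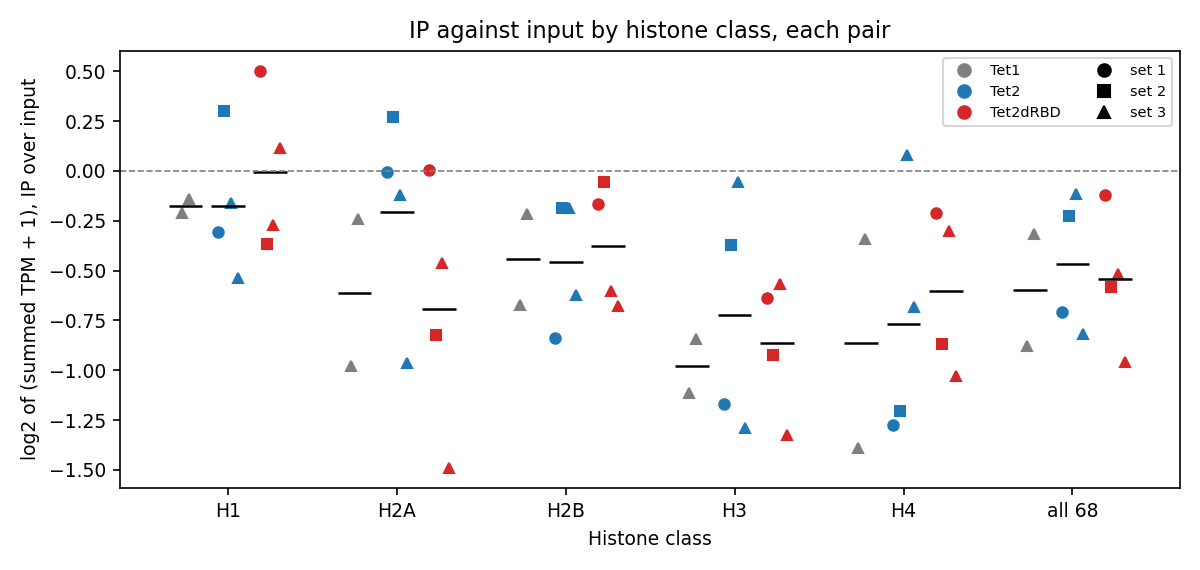
log2 of (summed TPM + 1) in IP over the paired input for each histone class and for all 68 genes, one point per pair, coloured by line and shaped by library set, with the mean of each line as a bar. All pairs lie below 0 for H2B, H3 and the sum of all 68 genes, and H1 lies on both sides of 0.

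Gene by gene, 8 of the 32 members tested were lower in the Tet2 IP than in the Tet2 input at an adjusted p below 0.05 (edgeR's quasi-likelihood test with the pair as a block), and none was higher. Among all 13710 genes tested 33.1% were called, 18.5% lower and 14.6% higher. The share of members called lower was near that background, so the count is not read as particular to the members. The share called higher was below it. Among all genes with models under 700 bases, as 22 of the 32 members had, 57.6% were called lower. Of the 32, 28 had a fitted log2 ratio below 0, against 49.8% of all genes tested. The median over the 32 was -0.75, against 0.00 for all genes tested. The filter of at least 1 CPM in at least 2 libraries can be met by inputs alone. Some members, among them Hist1h2be and Hist1h4h, met it in that way and so lean below 0 by selection. The other 36 members did not pass the filter on low counts. When all 68 were kept, 56 had a fitted log2 ratio below 0, with a median of -0.71, and 8 were called, all of them lower. The 8 genes comprised 4 H2B genes (Hist1h2bc, Hist1h2be, Hist2h2be, Hist3h2ba), 2 H4 genes (Hist1h4h, Hist1h4i), the H3 gene Hist2h3c1 and the H1 gene Hist1h1c. None of the 9 H2A genes tested was called.

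Hist2h2be, which encodes an H2B variant studied in olfactory neurons, had no hairpin in the window and a model of 2618 bases, and all its coding windows were unique. It held 0.59, 0.86, 1.19 and 1.46 TPM in the 4 Tet2 inputs and 0.45, 0.45, 0.37 and 0.42 TPM in the paired precipitates. All IP values lay below all input values, and the fitted log2 ratio was -1.52 ± 0.29 (SE; edgeR adjusted p = 0.00368). It was the only member past the threshold under every alternative tried for Tet2. Hist1h4i held 5.32, 5.63, 4.10 and 3.61 TPM in the inputs and 2.66, 1.08, 2.10 and 3.20 TPM in the precipitates, again without overlap (fitted log2 ratio -1.38 ± 0.39, SE; edgeR adjusted p = 0.020). Hist1h4h, another H4 gene, held 3.73, 4.14, 1.97 and 2.12 TPM in the inputs and 1.71, 0.63, 1.86 and 1.78 TPM in the precipitates (fitted log2 ratio -1.30 ± 0.40, SE; edgeR adjusted p = 0.0276). In replicate 3 the gap between its values was small, and the groups did not overlap. Hist1h4h reached 1 CPM in inputs only, so it was tested because its inputs were high. Over all 68 members, 5 had every IP value below every input value, against 1.55% of all genes.

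Hist1h2bc, the most abundant member, held 46.8, 10.6, 21.2 and 22.3 TPM in the Tet2 inputs and 24.5, 12.0, 14.1 and 13.9 TPM in the paired precipitates. It was lower in 3 of 4 pairs, and the ranges of the groups overlapped, the values of replicate 1 being the highest of both (fitted log2 ratio -0.84 ± 0.19, SE; edgeR adjusted p = 0.00699). Hist3h2ba held 15.2, 3.37, 2.78 and 3.63 TPM in the inputs and 10.5, 1.59, 1.98 and 1.81 TPM in the precipitates, lower in 4 of 4 pairs (fitted log2 ratio -1.07 ± 0.29, SE; edgeR adjusted p = 0.0176). Its neighbour Hist3h2a did not pass the test, with 13.6, 2.81, 2.13 and 2.76 TPM in the inputs and 14.4, 2.02, 2.38 and 2.89 TPM in the precipitates, higher in 3 of 4 pairs on the TPM scale. Hist1h1c held 15.4, 4.76, 5.90 and 6.22 TPM in the inputs and 15.1, 4.82, 4.11 and 4.12 TPM in the precipitates (fitted log2 ratio -0.60 ± 0.16, SE; edgeR adjusted p = 0.0169). Replicates 1 and 2 of Hist1h1c were close to equal on the TPM scale.

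The last pair of calls rested on few reads. Hist1h2be held 10.3 to 37.4 expected counts per Tet2 input and 2.09 to 8.84 per precipitate (fitted log2 ratio -1.59 ± 0.53, SE; edgeR adjusted p = 0.0405). It reached 1 CPM in inputs only, so it was tested because its inputs were high. Hist2h3c1 held 12.9 to 53.5 and 10.1 to 27.8 expected counts (fitted log2 ratio -0.80 ± 0.27, SE; edgeR adjusted p = 0.0409), and its annotated span overlaps that of Hist2h2aa1, so that its reads are uncertain. Hist1h2bk, the second most abundant member, was not called, with 33.0, 16.4, 9.97 and 11.9 TPM in the inputs and 22.4, 13.2, 11.3 and 10.4 TPM in the precipitates. The count of 8 fell to 2 without replicate 1 (10.8% of all genes lower), to 4 without any other replicate (14.2% to 15.6% lower) and to 1 without library set 1 (10.9% lower). Without the pair as a block it was 1, Hist2h2be (1.85% lower).

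The precipitate of Tet2dRBD gave a like picture. In it 6 of 32 members were lower than input and none higher, against 12.1% of all genes lower and 7.4% higher. The fitted ratio was below 0 for 30 of the 32, against 51.5% of all genes tested, with a median of -0.85 against -0.01. Members that passed the filter through inputs only are among the 32. When all 68 were kept, 51 had a fitted log2 ratio below 0, with a median of -0.62. The 6 were Hist1h2bc, Hist2h2be, Hist1h4h, Hist1h4i, Hist2h3c1 and Hist1h3b, and 5 of them were also among the 8 of Tet2. Hist2h2be held 1.02, 0.83, 1.68 and 1.00 TPM in the inputs and 0.86, 0.18, 0.54 and 0.48 TPM in the precipitates, lower in 4 of 4 pairs (fitted log2 ratio -1.51 ± 0.29, SE; edgeR adjusted p = 0.00691). Hist1h4i held 4.93, 4.55, 4.44 and 5.87 TPM in the inputs and 3.87, 1.62, 0.89 and 3.19 TPM in the precipitates. Its groups did not overlap (fitted log2 ratio -1.42 ± 0.39, SE; edgeR adjusted p = 0.0277). Hist1h4h, which passed the filter through inputs only, held 2.01, 7.51, 1.01 and 3.16 TPM in the inputs and 1.09, 1.61, 0.36 and 0.84 TPM in the precipitates (fitted log2 ratio -2.0 ± 0.43, SE; edgeR adjusted p = 0.0116).

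Hist1h2bc held 48.1, 10.8, 24.7 and 30.0 TPM in the Tet2dRBD inputs and 43.6, 10.0, 17.7 and 16.5 TPM in the precipitates, lower in 4 of 4 pairs (fitted log2 ratio -0.68 ± 0.18, SE; edgeR adjusted p = 0.0283). Its deficit was small in replicates 1 and 2. Hist1h3b, an H3 gene with 5.5% unique coding windows, held 39.1, 69.4, 3.65 and 0 expected counts in the inputs and 0, 0, 0 and 2.72 in the precipitates, so its fitted log2 ratio of -4.95 ± 1.35 (SE; edgeR adjusted p = 0.0287) rested on 2 inputs and is no measure of size. Hist1h3b also passed the filter through inputs only. Hist1h1c, called in Tet2, held 14.9, 7.17, 6.93 and 4.72 TPM in the inputs and 20.6, 5.30, 5.11 and 6.27 TPM in the precipitates, higher in 2 of 4 pairs. Hist3h2ba held 13.6, 1.82, 2.39 and 2.88 TPM in the inputs and 11.02, 3.14, 1.83 and 1.22 TPM in the precipitates. The count of 6 was 1 without replicate 3 (4.3% of all genes lower), 3 without replicate 1 (6.38%), 4 without replicate 2 or 4 (11.8% and 8.97%), 2 without library set 1 (4.83%) and 0 without the pair as a block (0.299%).

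Whether the ratio depended on the RNA-binding domain was tested by subtracting the fitted log2 ratio of Tet2dRBD from that of Tet2. No member passed this test (0 of 32 by edgeR, none at an unadjusted p below 0.05, and none by DESeq2), against 0.0219% of all genes. All 32 intervals of the difference held 0, but most were wide, with a median width of 3.29 log2 units. For 6 members the 95% interval lay within 1 log2 unit of 0. It ran from -0.73 to 0.41 for Hist1h2bc, from -0.88 to 0.93 for Hist1h2bk, from -0.82 to 0.18 for Hist1h1c, from -0.36 to 0.77 for Hist3h2a, from -0.89 to 0.89 for Hist2h2be and from -0.73 to 0.90 for Hist2h3c1. For Hist1h3b, with the most extreme value, the difference was 3.41 on the log2 scale with an interval from -0.32 to 7.14. A difference smaller than these intervals was not detectable at this depth.

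In Tet1, with 2 pairs, no member passed the threshold (0 of 32 by edgeR, with 4 at an unadjusted p below 0.05, and 1 by DESeq2), against 5.9% of all genes called and 3.18% called lower. The fitted ratio was below 0 for 30 of 32, against 53.5% of all genes tested. The exceptions were Hist1h2ap, with reads in 1 Tet1 library, and Hist1h2ad, with 0 counts in all 4. The median over the 32 was -0.96 against -0.04 for all genes tested. Since some of the 32 passed the filter through inputs only, these values lean below 0 by selection. When all 68 were kept, 55 had a fitted log2 ratio below 0, with a median of -0.93. Hist2h2be held 1.64 and 1.78 TPM in the inputs and 0.70 and 0.71 TPM in the precipitates (fitted log2 ratio -1.42 ± 0.39, SE; edgeR adjusted p = 0.0585). Hist1h4h, which passed the filter through inputs only, held 3.52 and 2.80 TPM in the inputs and 1.11 and 1.02 TPM in the precipitates. Both genes had all IP values below all input values, as 23 members did in Tet1, against 16.9% of all genes. Among the most abundant, Hist1h2bc held 37.5 and 31.1 TPM in the inputs and 27.5 and 32.8 TPM in the precipitates, and Hist1h1c 8.76 and 9.26 TPM in the inputs and 8.87 and 9.70 TPM in the precipitates, so the pairs lay close to equality or on both sides of it. A fit of the Tet1 libraries alone called 55.0% of all genes, with 26.7% of all genes lower, and 7 of the 12 members it tested, each of them lower: Hist1h1a, Hist1h2bc, Hist1h2bk, Hist1h3c, Hist2h2be, Hist2h3c1 and Hist3h2a. That fit rested on 2 pairs of a single library set, so its calls measure only the spread between these libraries, which may be technical. Between Tet2 and Tet1 no member differed (0 of 32 by edgeR, none at an unadjusted p below 0.05, none by DESeq2), against 0.0% of all genes.

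**Figure D4:**
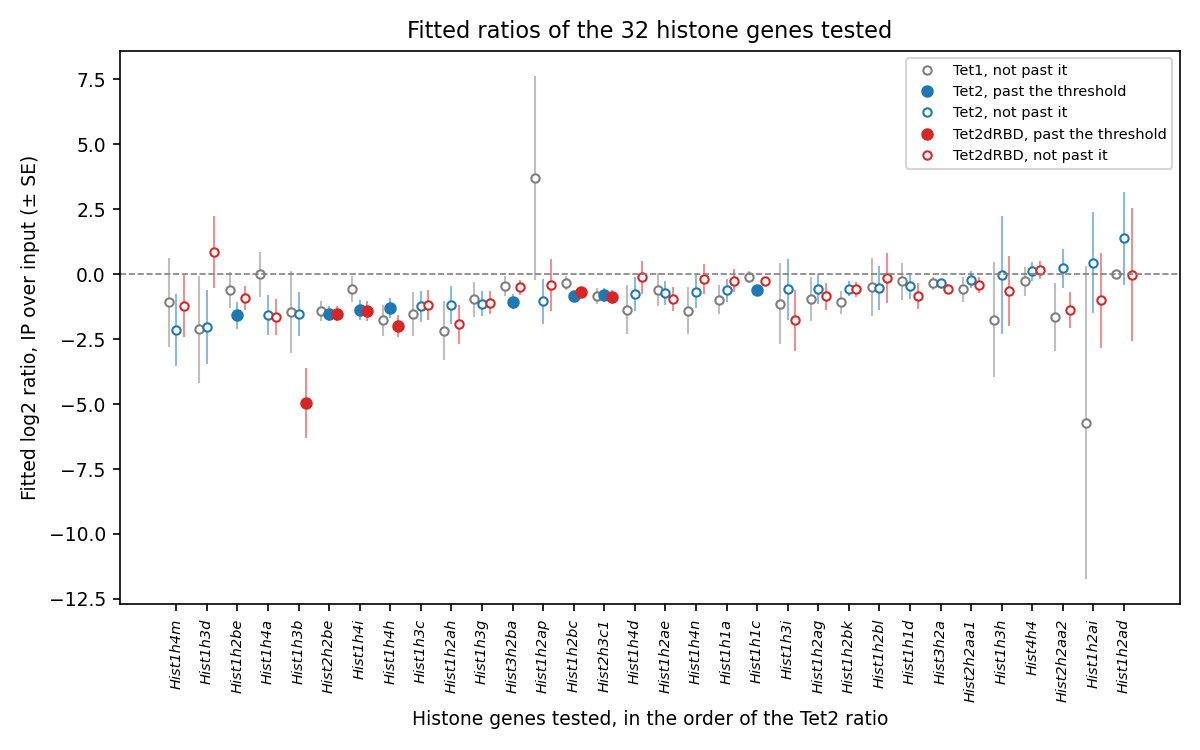
Fitted log2 ratio of IP over input with its standard error for the 32 histone genes tested, in the order of the Tet2 ratio, with the 3 lines side by side and filled points for adjusted p below 0.05. The filled points, 8 for Tet2 and 6 for Tet2dRBD, all lie below 0, and Hist1h2ap is the member above 0 in Tet1.

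The study called an RNA a target where its TPM + 1 in the IP exceeded that of the input. Requiring this in every replicate, 0 of 68 histone genes met the rule in Tet2 against 28.6% of all genes, 1 in Tet2dRBD against 19.9%, and 6 in Tet1 against 33.5%. The 1 gene in Tet2dRBD was Hist4h4, an H4 gene on chromosome 6 with 0.65, 0.26, 0.45 and 0.39 TPM in the inputs and 0.80, 0.50, 0.51 and 0.50 TPM in the precipitates. The 6 in Tet1 were Hist1h1c, Hist1h1e, Hist1h2ab, Hist1h2bj, Hist1h2bp and Hist2h3c2. The opposite, IP below input in every replicate, held for 8 genes in Tet2 against 7.71% of all genes, 8 in Tet2dRBD against 5.58% and 31 in Tet1 against 20.7%. Low levels bear on these counts, since a gene at 0 on both sides can meet neither rule. Among genes that averaged 1 TPM or more in the inputs of the line, the rule was met by 0 of 42 members in Tet2 against 46.9% of such genes, 0 of 39 in Tet2dRBD against 31.1% and 2 of 39 in Tet1 against 50.4%. Both directions were possible for these members, and 6 in Tet2, 7 in Tet2dRBD and 26 in Tet1 were below input in every replicate, against 13.5%, 9.52% and 32.7% of such genes.

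The length of the gene model moved with the ratio over all genes. In Tet2, 57.6% of the 441 genes tested with models under 700 bases were lower in the IP, against 7.12% of the genes of at least 4000 bases, and the median fitted log2 ratio rose from -0.72 to 0.28 between these bins. Of the 32 histone genes tested, 22 had models under 700 bases. In Tet2 3 of these 22 were called lower, a smaller share than the 57.6% of all genes of that length, and their median fitted log2 ratio was -0.91. In Tet2dRBD 3 of the 22 were called lower against 32.7% of all genes of that length, with medians of -0.93 and -0.49, and in Tet1 the medians were -1.11 and -0.41. The 4 members with models of 2000 to 4000 bases had a median of -0.98 in Tet2, -0.88 in Tet2dRBD and -0.44 in Tet1. All genes of that length had 0.05, 0.01 and -0.02. The 4 were unlike, with Tet2 ratios of -1.59 for Hist1h2be, -1.52 for Hist2h2be, -0.45 for Hist1h1d and 0.11 for Hist4h4. Hist1h2be, and Hist1h4h among the shorter models, passed the filter through inputs only. The part of length in the ratios of the members was not tested. By kind of model, 4 of the 8 members called in Tet2 had long models, 3 had models with at most 200 further bases and 1 had no hairpin found. None of the 12 tested members with coding-only models was called in Tet2, and 1 was in Tet2dRBD. Median fitted log2 ratios in Tet2 were -0.72 for coding-only models, -1.07 with at most 200 further bases and -0.66 for long models. Over all members, the median of mean counts per library was 7.85 for coding-only and 23.5 for long models. The part of depth in this split was not tested.

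**Figure D5:**
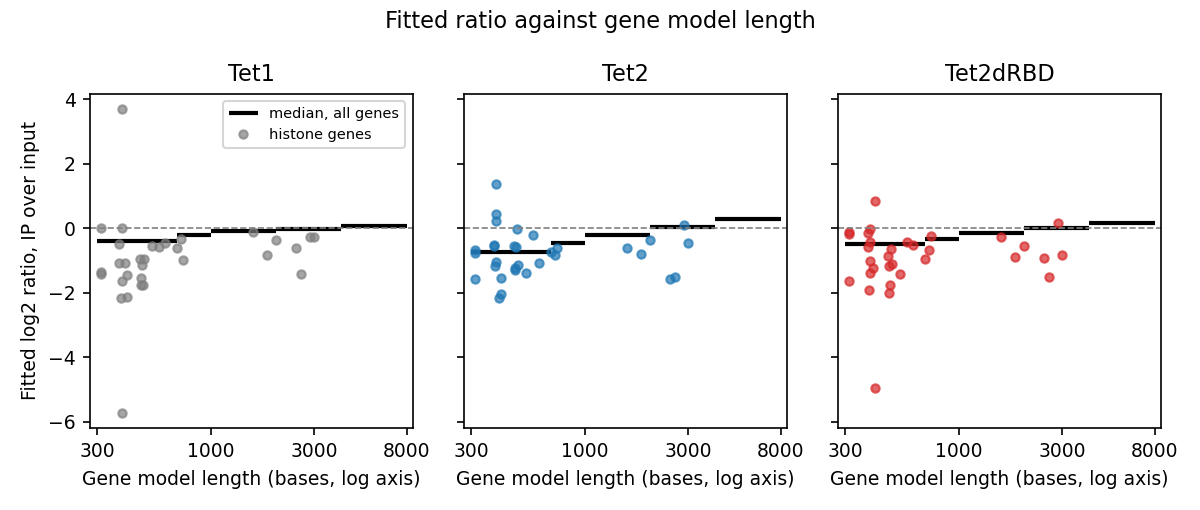
Fitted log2 ratio of IP over input against gene model length on a log axis for the 32 histone genes tested (points), with the median of all genes tested in each length bin (black lines), for each line. The median of all genes rises from -0.72 in the shortest to 0.28 in the longest bin in Tet2. The 4 histone genes of 2000 to 4000 bases run from -1.59 to 0.11 in Tet2 and from -1.51 to 0.17 in Tet2dRBD.

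The replication-independent histone variants, whose transcripts for the most part end in a poly(A) tail, were also lower in the precipitates. Of the 11 tested, 9 were lower and none higher in Tet2, 7 and none in Tet2dRBD and 2 and none in Tet1, with median fitted log2 ratios of -0.60, -0.47 and -0.48. H3f3a, which encodes the variant H3.3, averaged 1519 TPM in the Tet2 inputs and 606 TPM in the precipitates (fitted log2 ratio -1.65 ± 0.13, SE; edgeR adjusted p = 7.4e-05). H3f3b, the second H3.3 gene, averaged 704 and 490 TPM (-0.84 ± 0.11, SE; edgeR adjusted p = 0.000478). H2afz, the H2A.Z gene, averaged 2450 and 1516 TPM (-1.06 ± 0.13, SE; edgeR adjusted p = 0.000406), and H2afy2, a macroH2A gene, was lower as well (-0.75 ± 0.10, SE). A median fitted ratio below 0 was thus common to these variants and the replication-dependent histone genes in these libraries.

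Genes that act on histone transcripts moved in both directions. Of 18 genes of histone gene transcription and messenger RNA processing, 6 were higher and 4 lower in the Tet2 IP, with a median fitted log2 ratio of 0.32. Slbp, which binds the hairpins shown above, averaged 90.2 TPM in the Tet2 inputs and 67.0 TPM in the precipitates (fitted log2 ratio -0.82 ± 0.16, SE; edgeR adjusted p = 0.00318). It was lower in Tet2dRBD too (-0.76 ± 0.16, SE; edgeR adjusted p = 0.00868), with a value of -0.76 ± 0.22 in Tet1 that did not pass (SE; edgeR adjusted p = 0.0657). Npat, the coactivator of histone gene transcription, was higher in Tet2 (1.13 ± 0.35, SE; edgeR adjusted p = 0.0283) and Tet1 (1.86 ± 0.49, SE; edgeR adjusted p = 0.0499). Casp8ap2, which is needed for histone gene expression in S phase, and Cpsf3, the nuclease that cleaves histone precursors, were higher in Tet2 (1.43 ± 0.48 and 0.82 ± 0.20, SE). Among 18 chaperone and assembly genes 4 were higher and 2 lower in Tet2, with Asf1b, a chaperone of H3 and H4, at -0.82 ± 0.11 and Supt16h, a subunit of the FACT complex, at 0.76 ± 0.19 (SE). Among 16 S phase genes 4 were higher and 2 lower in Tet2, with Mcm6, a subunit of the replicative helicase, at 0.95 ± 0.26 and Rrm2, a ribonucleotide reductase subunit, at -0.69 ± 0.09 (SE).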

How the data were processed

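RNA immunoprecipitation sequencing of 20 libraries (10 IP, 10 input) was analysed. Per the study's methods, the authors ran FastQC and AfterQC, removed ribosomal and transfer RNA reads with Bowtie2, trimmed with Trimmomatic and quantified with RSEM on mm9 and a RefSeq transcriptome. The deposited expected counts, the authors' TPM + 1 values and the lengths and effective lengths in the deposited tables (other units) were used, and FPKM was not. The gene model length is the deposited length. Versions are not given in the sources used here. Depth was 21078995 to 37576638 expected counts per library. Counts were rounded and genes with at least 1 CPM in at least 2 libraries were tested with edgeR 4.0.16 (TMM, quasi-likelihood, R 4.3.3) over all 20 libraries, with the pair as a block, 1 IP effect per line and Benjamini-Hochberg adjustment over all genes. A second fit of the 10 inputs used line and library set. DESeq2 1.42.0 and limma 3.58.1 were alternatives. The deposited values give a log2 ratio per pair after a pseudocount of 1.

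Same-numbered IP and input libraries deviated together from their group means in every pair (correlation 0.184 in Tet1, with 2 pairs, 0.614 to 0.862 in Tet2 and 0.578 to 0.849 in Tet2dRBD, against -0.735 to 0.779 for other numbers). The ranges for same and other numbers overlap in Tet2 and Tet2dRBD. In Tet1, with 2 pairs, the value for the other number (-0.184) mirrors the first by construction. This check therefore cannot settle the pairing, and the replicate numbers of the labels were taken as pairs. No libraries were merged: replicates 3 and 4 differed by more than sampling noise (mean chi-square per gene 2.69 to 16.1), though far less than replicates of different library sets (132 to 527), so they may not be as independent as n = 4 implies. The fit with them summed is an alternative. Members and gene lists were chosen with earlier results of these data known. Members described singly were the 10 with the highest mean input TPM, those past the threshold (at most 8 per contrast, by size), those with the 3 highest and 3 lowest IP ratios per line and the 3 largest and 3 smallest ranges over sets among members of at least 5 TPM. Of other lists, Slbp, H3f3b, H2afz and at most 4 called genes per list were eligible. Hairpins were read from the mm9 genome (NCBI build 37) with GENCODE vM1, and the hairpin search was added after the data were seen, a stricter pattern chosen earlier being present in 46 members and 0.0683% of genes. The fits were tested on simulated data. Intervals and floors from counts cover counting error only and are not printed.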

Additional observations from a re-analysis of the deposited data

Results flagged for a closer look

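Each group of 4 libraries was examined for a single library lying far from the other 3, for the class sums and for the 10 members with the highest input. Of the 64 groups examined, 15 held such a library, and in each of them it was the highest and was replicate 1, which belongs to library set 1. The values given are the gap to the nearest library over the range of the group, all above Dixon's critical value for 4 samples. Chance exceeds it in about 5% of groups of 4 independent samples. That rate does not apply here, since replicates 3 and 4 share a library set and the class sums hold genes also examined singly. Among the inputs the value was 0.928 for the H1 sum of Tet2 (22.5 TPM against 6.61 to 7.76 TPM), 0.923 for the H2B sum of Tet2 (126 against 42.4 to 48.9 TPM) and 0.891 for the H2B sum of Tet2dRBD (100.3 against 49.4 to 54.9 TPM). Hist1h1c reached 0.935 in the Tet2 IP, 0.863 in the Tet2 input and 0.925 in the Tet2dRBD IP. Hist3h2ba reached 0.956 in the Tet2 IP, 0.932 in the Tet2 input and 0.910 in the Tet2dRBD input. Hist3h2a reached 0.930 in the Tet2 IP, 0.940 in the Tet2 input, 0.932 in the Tet2dRBD IP and 0.967 in the Tet2dRBD input. Hist1h2bc reached 0.833 and Hist2h2aa1 0.899, both in the Tet2 IP. What set 1 differs in was not tested.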

How the results depend on the processing

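The calls of single members rested on the pairs and on all 3 library sets. In Tet2 the main count of 8 was 4 and 5 with limma (pseudocounts 1 and 0.1), 1 with no replicate block, 5 with the Tet2 libraries alone, 1 without library set 1 (chosen after seeing the data) and 2 to 4 when one pair was left out, and 6 with replicates 3 and 4 summed. In Tet2dRBD the count of 6 was 3 with limma at either pseudocount, 0 with no replicate block, 0 with its own libraries alone, 3 with replicates 3 and 4 merged, 2 without library set 1 and 1 to 4 when one pair was left out. In Tet1 the count of 0 was 1 with DESeq2, 7 with the Tet1 libraries alone and 1 without library set 1. No alternative called a member higher in an IP. The differences between lines and between the Tet2 and Tet2dRBD inputs were 0 under every alternative run. The 14 members that differed between input sets were 26 of 67 without the filter and 8 without set 1. Of members whose IP exceeded the input in each replicate, Tet1 gave 6, but 0 at a ratio of 1.5, 2 at a mean input TPM of at least 1, 11 from means without the replicate block, and 12 to 22 when one pair was left out. Tet2 gave 0, but 13 from means without the replicate block and 0 to 4 with a pair left out. Tet2dRBD gave 1, but 0 at a ratio of 1.5, 0 after centring, 0 at a mean input TPM of at least 1, 22 from means without the replicate block, and 1 to 3 with a pair left out. The summed log2 ratios of all 68 genes moved by less than their SD under every alternative run, including without Hist1h2bc, Hist1h2bk and Hist1h1c. With one pair left out, the H1 mean in Tet2dRBD (-0.01) lay between -0.175 and 0.115, at 0.08 without replicate 3, and the H2A mean in Tet2 (-0.21) between -0.364 and 0.0475. The fits on 1 line alone or without set 1 tested 12 to 23 members in place of 32, and the cause of the changes was otherwise not tested. The 68 genes shared 794.9 to 3694.4 expected counts per library, which bounds the precision of each.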
